A study of Saccharomyces cerevisiae with 8 samples.

Results

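The genes described here encode the machinery that brings proteins into yeast mitochondria and folds them inside. The 36 members were matched by symbol through the annotation column of the authors' comparison tables, and all 36 were found among the 6696 gene regions of the count files. They fall into 10 roles, from the receptors of the outer membrane to the chaperones of the matrix. Nearly all mitochondrial proteins are made in the cytosol and pass through the translocase of the outer membrane (TOM). From there, proteins with a cleavable presequence take the TIM23 translocase and its motor into the matrix, carrier proteins take small TIM chaperones and the TIM22 translocase, outer membrane barrels take the SAM complex, and small cysteine-rich proteins are trapped in the intermembrane space by the oxidative MIA pathway. Matrix chaperones then fold what has arrived or pull aggregates apart, and the processing peptidase removes presequences.

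The W303 strain background of budding yeast was used, and RNA was sequenced from 2 biological replicates in each of 4 groups. The groups were grr1-deficient cells after 4 h of tunicamycin, grr1-deficient cells at 0 h, wild-type (WT) cells after 4 h of tunicamycin and WT cells at 0 h. Tunicamycin, an inhibitor of N-linked glycosylation that causes folding stress in the endoplasmic reticulum, was given at 1 µg/ml to cultures at an OD600 of 0.2 in SC medium with 2% glucose at 30 °C. Grr1 is the F-box subunit of a ubiquitin ligase, and the series asks how its loss alters the response to this stress. In any comparison of 4 h with 0 h the drug and time in culture cannot be told apart, since no untreated culture at 4 h was analysed here. The sources used here do not say whether the deficient strain is 1 clone.

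Reads assigned to genes numbered 4885844 to 12380049 per library, and the members held 0.442% to 1.18% of them. For GRR1 itself, grr1-deficient cells gave 6 and 12 reads after 4 h of tunicamycin and 2 and 3 before it, against 1794 and 1829 after 4 h and 1179 and 1384 before it in WT cells. Replicate 2 of the grr1-deficient strain had far fewer reads of the mitochondrial genome than replicate 1. The reads of 8 mitochondrially encoded protein genes summed to 309315 and 3 at 4 h and 230401 and 43 at 0 h in replicates 1 and 2 of grr1-deficient cells, against 117440 and 128852 at 4 h and 66026 and 60514 at 0 h in WT cells. Over all reading frames of the mitochondrial genome, grr1-deficient cells had 1095322 and 94806 reads at 4 h and 889931 and 18860 at 0 h, against 387146 and 446364 at 4 h and 223984 and 208372 at 0 h in WT cells. The tests that use grr1-deficient cells were therefore also run without both libraries of replicate 2, and the values of that fit are given. It leaves 1 library in each grr1-deficient group, so its spread comes from the WT pairs, and its calls cannot show robustness. Between replicates, the chi-square per degree of freedom was 469.89 at 4 h and 168.87 at 0 h in grr1-deficient cells. These values include the reading frames of the mitochondrial genome, whose part in them was not separated. In WT cells it was 6.17 at 4 h and 19.77 at 0 h. Of the members' reads, at least 88.5% in each library lay in coding regions, and the RefSeq annotation of build R64 places no other gene over a member. TOM70 and TOM71 are paralogs, as are SSC1 and ECM10, and the sources used here do not say how reads with several matches were counted. In RNA from whole cultures, fewer cells carrying a transcript and less transcript per cell cannot be told apart.

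Sequence elements were looked for in the genomic sequence of build R64, after the members' values had been seen. Puf3 is an RNA-binding protein known in yeast to bind the transcripts of many nuclear genes for mitochondrial proteins through an element behind the stop codon. The element was searched as TGTANATA on the strand of the gene in the 250 bases after the stop codon. It was present in 26 of 36 members (72.2%), against 910 of 6001 nuclear protein-coding genes (15.2%). On the opposite strand of the same windows it was found in 9 of 36 members (25.0%) and in 14.5% of all genes. The members held 33 elements in all, 6 members held more than 1, and the element nearest to the stop codon began 2 to 215 bases behind it, with a median of 66.5 bases. Those of 8 members whose transcript levels are described below are printed here with 6 flanking bases on each side and the element in capitals.
HSP60: ttatctTGTAAATAcaatgt
HSP10: tgtaccTGTAAATAggccat
HSP78: ctctttTGTAAATAgaagaa
MIA40: gatacaTGTAAATAcagtaa
ERV1: ttctcgTGTATATAacactc
PAM17: agactcTGTATATAtacata
MAS2: tcattcTGTATATAcaaaac
TIM17: caaccaTGTACATAttatat
The windows lie at chrXII:663212-663231, minus strand, for HSP60, at chrXV:370456-370475, minus strand, for HSP10, at chrIV:971726-971745, minus strand, for HSP78, and at chrXI:77082-77101, plus strand, for MIA40. Those of the other four lie at chrVII:544263-544282, plus strand, for ERV1, at chrXI:565251-565270, minus strand, for PAM17, at chrVIII:157516-157535, minus strand, for MAS2, and at chrX:147731-147750, plus strand, for TIM17. The base left free by N was A in HSP60, HSP10, HSP78 and MIA40, T in ERV1, PAM17 and MAS2, and C in TIM17. The 10 members without the letters in this window were TOM22, TOM71, TIM50, TIM21, PAM16, SSC1, SAM35, SAM37, SAM50 and MAS1.

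**Figure D1:**
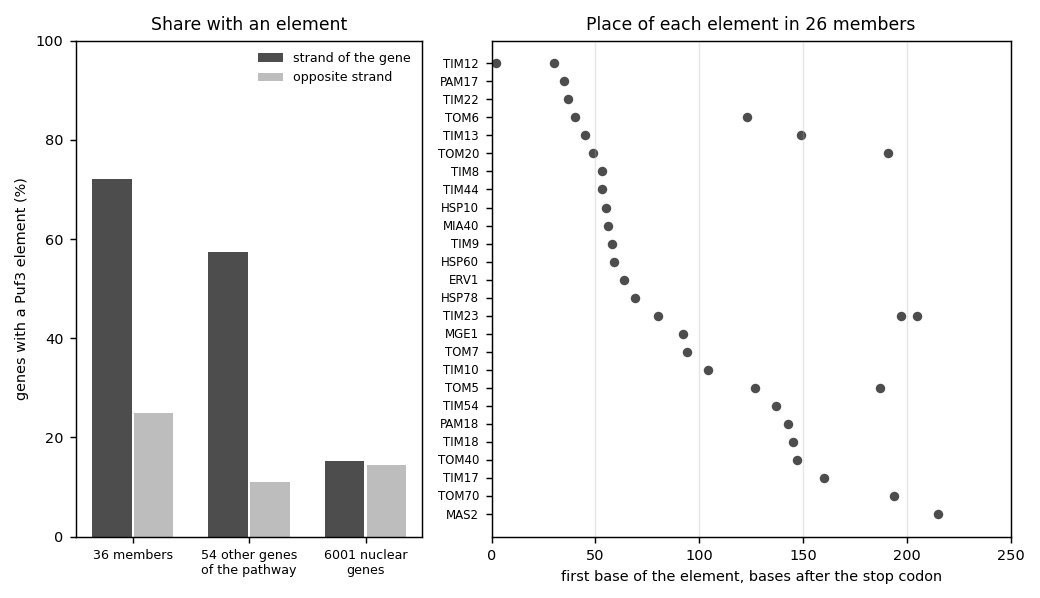
Left, share of genes (%) with the Puf3 element TGTANATA in the 250 bases behind the stop codon, for the 36 members, 54 other genes of the pathway and 6001 nuclear genes, on the strand of the gene (dark) and on the opposite strand (light). Right, the place of each of the 33 elements in the 26 members that hold it, in bases after the stop codon; 17 of the 26 have their nearest element within 100 bases.

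The heat shock element, bound by the heat shock factor Hsf1, was searched as the blocks GAA, TTC and GAA, each set apart from the next by NN, on both strands in the 400 bases before the start codon. It was found in 3 of 36 members (8.33%), against 73 of 6001 genes (1.22%), and the 3 were HSP60, HSP10 and HSP78. SSC1, the gene of the matrix Hsp70, did not hold it. They are printed with the element in capitals on the strand of the gene, and the first capital lies 210, 160 and 242 bases before the start codon in the order given.
HSP60: ctcgtgGAATTTTCCAGAAaaccaa
HSP10: atgataGAAATTTCTAGAAtcttga
HSP78: tttccaGAATGTTCTAGAAgtgttc
They lie at chrXII:665194-665218, minus strand, for HSP60, at chrXV:370986-371010, minus strand, for HSP10, and at chrIV:974467-974491, minus strand, for HSP78. In HSP78 a copy of the reverse complement overlaps the printed one. The stress response element AGGGG, searched on both strands of the same windows, was in 6 of 36 members (16.7%) and in 28.9% of genes, and HSP78 held 3 copies. The proteasome element GGTGGCAAA was in 0 of 36 members and in 1.40% of genes. A match describes these letters and is no evidence of binding.

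Across the 5 comparisons below, counts were tested with edgeR's quasi-likelihood test over 5855 genes, all 36 members among them, with Benjamini-Hochberg adjustment over all genes; a change passed where the adjusted p was under 0.05. Levels are CPM, read counts scaled to the size of the library with TMM factors, given per library in the order of the replicates, and changes are log2 fold changes ± SE. Per kilobase of countable length, HSP10 stood highest among the members in all 4 groups, at means of 513.8 in grr1-deficient cells at 4 h, 1407 in grr1-deficient cells at 0 h, 583 in WT cells at 4 h and 712 CPM per kilobase in WT cells at 0 h. SSC1 and HSP60 were among the 5 highest in each group. The lowest member was TIM13 in grr1-deficient cells at 4 h (18.9 CPM per kilobase), TOM71 in grr1-deficient cells at 0 h (38.4), TIM50 in WT cells at 4 h (18.02) and SAM37 in WT cells at 0 h (29.6).

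**Figure D2:**
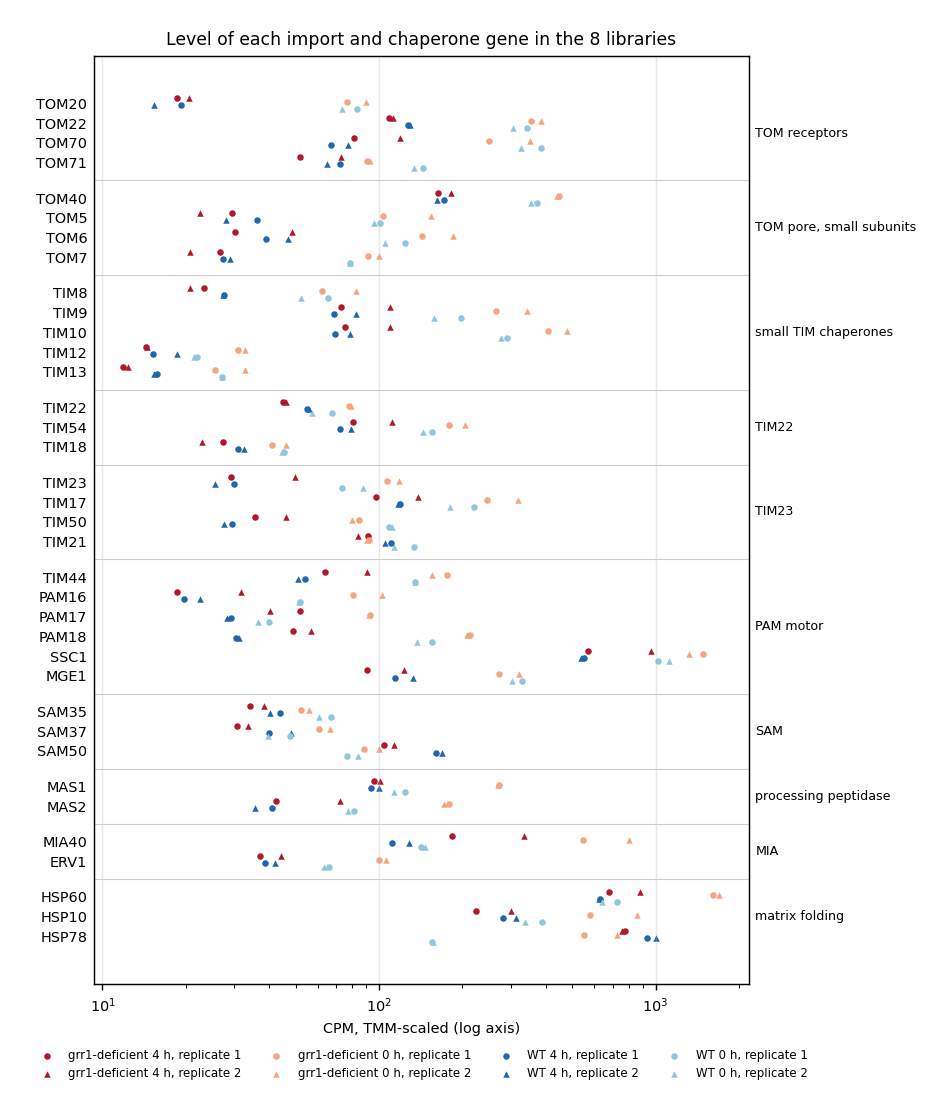
TMM-scaled CPM (log axis) of the 36 members, grouped by role, in each of the 8 libraries; circles are replicate 1 and triangles replicate 2. Most members sit lower at 4 h (dark) than at 0 h (light) in both strains, while HSP78 and SAM50 in WT cells sit higher at 4 h.

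The first question was how import genes stood after 4 h of tunicamycin in each strain. Most of the import machinery fell in both strains, and every member of the TOM receptors, the TOM pore and small subunits, the import motor and the processing peptidase was called lower in both. By role, the lowest medians were −2.03 for the TOM pore and small subunits, −1.71 for the small TIM chaperones and −1.66 for the TOM receptors in grr1-deficient cells. In WT cells they were −1.76 for the TOM receptors, −1.45 for the TOM pore and small subunits and −1.32 for the import motor. In grr1-deficient cells 33 members fell and 0 rose, against 24.5% of all genes called lower and 21.5% called higher. In WT cells 27 members fell and 2 rose, against 33.1% of all genes called lower and 32.5% called higher. The median change of the members was −1.35 in grr1-deficient cells, where the median of all genes was 0.04, and −1.002 in WT cells, where that of all genes was 0.03. The 27 that fell in WT cells were among the 33 that fell in grr1-deficient cells. The 2 comparisons share no library but come from 1 fit with common scaling and spread. The share of all genes called lower in both strains was not counted. A further 6 members, TIM12, TIM22, SAM37, MIA40, HSP60 and HSP10, passed the test for a decrease in grr1-deficient cells and did not pass in WT cells. A miss in WT cells is not by itself a difference between the strains, and it depended on the fit. In a fit of the WT groups alone, 30 members were called lower among 4659 genes called, against 27 among 3841 here. HSP78 and SAM50 rose in WT cells and passed in neither direction in grr1-deficient cells, and TIM21 passed in neither strain. Without both libraries of replicate 2, all 33 stayed below 0 in grr1-deficient cells, and the change of HSP78 there was 0.47. The median was then −1.45 over the members and 0.02 over all genes.

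The direction of the weaker changes in WT cells depended on the scaling. With total counts in place of TMM the median gene moved to 0.10 in grr1-deficient cells and to 0.78 in WT cells, and the members' median stood at −1.30 and −0.26, so it lay below that of all genes under either scaling. In WT cells 7 members were then called higher and 13 lower, against 57.0% of all genes called higher and 16.3% called lower, and the 7 were HSP78, SAM50, SAM37, HSP60, TIM22, TIM21 and MAS1. TIM18, PAM17, SAM35, MAS1 and ERV1, called lower in WT cells with TMM, then stood above 0, and TOM71, TIM8, TIM9, TIM13, TIM54, TIM17, PAM16, SSC1 and MAS2 stood below 0 and no longer passed. The call of MAS1 in WT cells was also lost with the replicate block (adjusted p = 0.0624), with DESeq2 (0.0603) and without the mitochondrial genome (0.149), which also ended that of PAM17 (0.0794). In grr1-deficient cells TOM71 did not pass with total counts (adjusted p = 0.0522), and neither TOM71 (0.0828) nor SSC1 (0.119) passed in a fit of these groups alone. In WT cells 5 of the calls also depended on a library. Without WT 4 h replicate 1, the adjusted p was 0.0719 for TIM18, 0.105 for PAM17, 0.0504 for SSC1 and 0.220 for MAS1. On leaving out WT 4 h replicate 2, the adjusted p rose to 0.0536 for TIM17, 0.147 for PAM17, 0.0571 for SSC1 and 0.107 for MAS1. With the omission of WT 0 h replicate 1, the adjusted p came to 0.0614 for TIM17, 0.138 for PAM17 and 0.192 for MAS1. Without WT 0 h replicate 2, the adjusted p stood at 0.0529 for PAM17 and 0.0564 for MAS1. In grr1-deficient cells 2 did. Without grr1-deficient 4 h replicate 1, the adjusted p reached 0.0783 for TOM71 and 0.0617 for SSC1, and without grr1-deficient 0 h replicate 1 it was 0.0561 for TOM71 and 0.0575 for SSC1. On leaving out grr1-deficient 0 h replicate 2, the adjusted p was 0.0591 for TOM71.

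**Figure D3:**
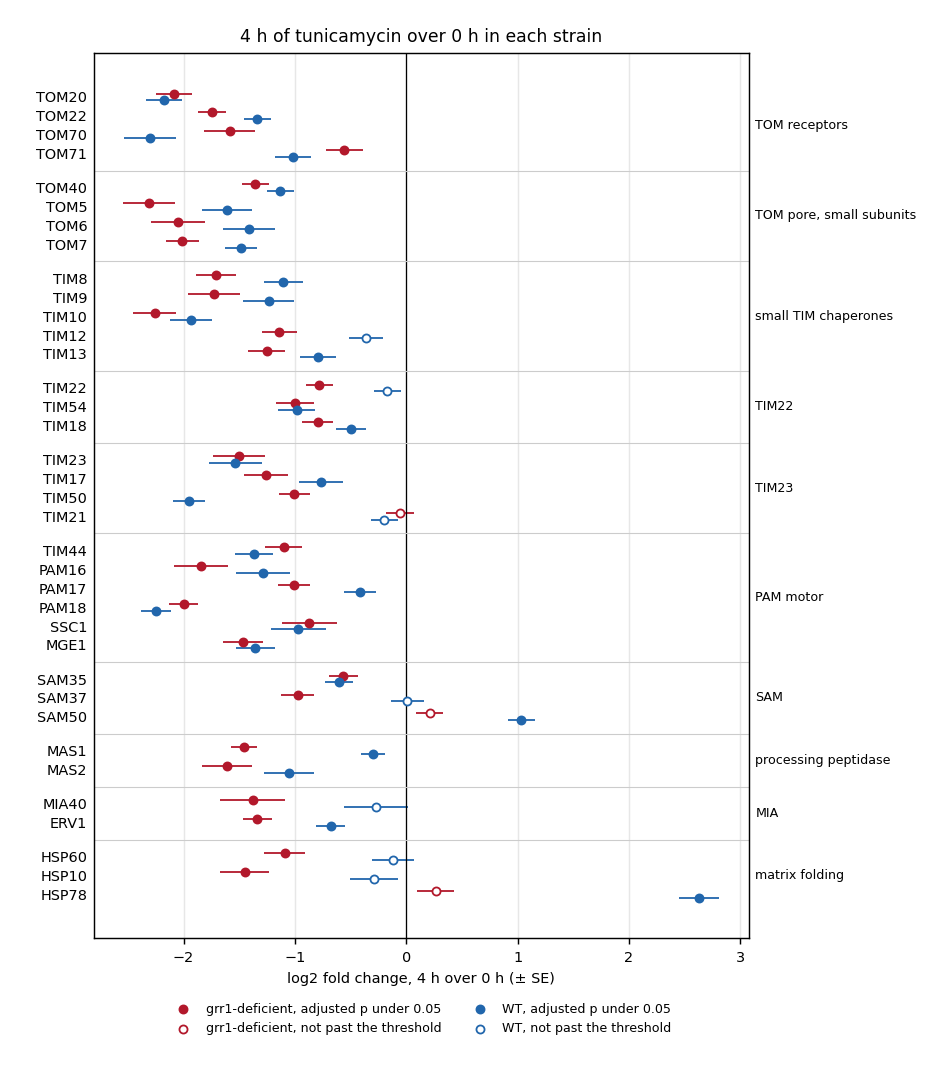
log2 fold change of 4 h over 0 h (± SE) for each member in grr1-deficient cells (red) and WT cells (blue); filled points passed the threshold of 0.05 on edgeR's adjusted p. In grr1-deficient cells 33 members lie below 0 and filled; in WT cells HSP78 lies at 2.63, and TIM18, PAM17, SAM35, MAS1 and ERV1 lie below 0 with TMM but above 0 with total counts.

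The TOM receptors recognise incoming proteins at the mitochondrial surface. TOM20, the receptor for presequences, measured 18.6 and 20.6 CPM at 4 h against 76.7 and 90.0 CPM at 0 h in grr1-deficient cells, and 19.2 and 15.3 CPM at 4 h against 83.15 and 73.2 CPM at 0 h in WT cells. All 4 libraries at 4 h were below all 4 at 0 h, and the change was −2.08 ± 0.16 in grr1-deficient cells and −2.18 ± 0.16 in WT cells. TOM70, the receptor for carrier proteins, measured 81.2 and 119.5 CPM at 4 h against 251 and 352 CPM at 0 h in grr1-deficient cells, and 66.8 and 76.9 CPM at 4 h against 384 and 325 CPM at 0 h in WT cells. It changed by −1.58 ± 0.23 in grr1-deficient cells and −2.303 ± 0.24 in WT cells, and the difference between them, 0.72 ± 0.32, did not pass (adjusted p = 0.112). Without both libraries of replicate 2 the difference was 0.69. TOM22, the central receptor that links the pores, fell by 1.74 and 1.34 in grr1-deficient and WT cells, and TOM71, the low-abundance paralog of TOM70, by 0.56 and 1.02. At 0 h TOM71 was lower in grr1-deficient cells, at 90.75 and 93.0 CPM, than in WT cells, at 144 and 133 CPM (log2 −0.59 ± 0.16, adjusted p = 0.0167).

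TOM40 forms the pore, and TOM5, TOM6 and TOM7 are small subunits that assemble and stabilise it. TOM40 measured 164 and 182 CPM at 4 h against 448 and 439 CPM at 0 h in grr1-deficient cells, and 171 and 162 CPM at 4 h against 374 and 355 CPM at 0 h in WT cells. The 2 strains overlapped at 4 h, and TOM40 fell by 1.36 in grr1-deficient cells and by 1.13 in WT cells. The small subunits TOM5, TOM6 and TOM7 changed by −2.31, −2.05 and −2.01 in grr1-deficient cells, against −1.61, −1.41 and −1.49 in WT cells, and none of these differences passed the interaction test (adjusted p = 0.115, 0.168 and 0.0744). Without both libraries of replicate 2 these differences were −0.19 for TOM5, −0.82 for TOM6 and −0.27 for TOM7. None of the 4 passed the threshold between the strains at 0 h or at 4 h with all 8 libraries. Their changes were 0.28 to 0.52 at 0 h and −0.31 to 0.05 at 4 h.

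The small TIM chaperones carry hydrophobic proteins across the intermembrane space. TIM10, which forms a hexamer with TIM9, measured 75.5 and 109.7 CPM at 4 h against 408 and 480.3 CPM at 0 h in grr1-deficient cells, and 69.55 and 78.4 CPM at 4 h against 289.5 and 275 CPM at 0 h in WT cells. It was the steepest decrease of the group, at −2.26 ± 0.19 in grr1-deficient cells and −1.93 ± 0.19 in WT cells. TIM9 measured 72.9 and 109.6 CPM at 4 h against 264 and 341 CPM at 0 h in grr1-deficient cells, and 68.9 and 82.7 CPM at 4 h against 198 and 159 CPM at 0 h in WT cells. At 0 h TIM9 and TIM10 were higher in grr1-deficient cells than in WT cells, by 0.76 ± 0.22 (adjusted p = 0.0230) and 0.65 ± 0.18 (adjusted p = 0.0181). TIM12, the peripheral subunit that docks the hexamer on TIM22, measured 14.3 and 14.5 CPM at 4 h against 31.0 and 32.7 CPM at 0 h in grr1-deficient cells, and 15.3 and 18.6 CPM at 4 h against 22.0 and 21.4 CPM at 0 h in WT cells. It fell by 1.14 in grr1-deficient cells, while its change in WT cells, −0.36, did not pass (adjusted p = 0.0674), and the difference passed (log2 −0.78 ± 0.22, adjusted p = 0.0228). TIM8 and TIM13, which work as a pair on other substrates, fell by 1.71 and 1.26 in grr1-deficient cells and by 1.10 and 0.80 in WT cells.

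TIM22 is the channel that inserts carrier proteins into the inner membrane, and TIM54 and TIM18 are its partners. TIM22 measured 45.1 and 46.2 CPM at 4 h against 77.6 and 79.4 CPM at 0 h in grr1-deficient cells, and 55.01 and 55.8 CPM at 4 h against 67.4 and 57.5 CPM at 0 h in WT cells. It fell in grr1-deficient cells (log2 −0.78 ± 0.12, adjusted p = 0.00115) and not past the threshold in WT cells (log2 −0.17 ± 0.12, adjusted p = 0.234). TIM54 fell in both strains, by 1.00 in grr1-deficient and 0.99 in WT cells, with an interaction of −0.01 ± 0.23. TIM18 fell by 0.80 in grr1-deficient cells and by 0.50 in WT cells, and with total counts its change in WT cells was 0.24, which did not pass (adjusted p = 0.257).

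TIM23 and TIM17 form the presequence translocase, TIM50 is its receptor facing the intermembrane space and TIM21 couples it to other complexes. TIM50 measured 35.7 and 46.2 CPM at 4 h against 84.5 and 80.1 CPM at 0 h in grr1-deficient cells, and 29.5 and 27.5 CPM at 4 h against 109 and 112 CPM at 0 h in WT cells. The 4 h libraries lay well below the 0 h libraries in both strains, and the decrease was smaller in grr1-deficient cells, −1.004 ± 0.14, than in WT cells, −1.95 ± 0.15 (difference log2 0.95 ± 0.20, adjusted p = 0.00726). The difference became 0.26 (adjusted p = 0.355) with total counts. TIM23 measured 29.1 and 49.6 CPM at 4 h against 106.5 and 118 CPM at 0 h in grr1-deficient cells, and 29.8 and 25.6 CPM at 4 h against 73.5 and 87.15 CPM at 0 h in WT cells. It fell by 1.504 in grr1-deficient cells and by 1.54 in WT cells, and TIM17 fell by 1.26 and 0.77. TIM21 measured 91.3 and 83.8 CPM at 4 h against 92.2 and 90.2 CPM at 0 h in grr1-deficient cells, and 111 and 105 CPM at 4 h against 134 and 113.5 CPM at 0 h in WT cells. Its change with time passed in neither strain, and it was lower in grr1-deficient than in WT cells at 0 h (log2 −0.44 ± 0.12, adjusted p = 0.0183).

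The import motor pulls precursors into the matrix. SSC1, the mitochondrial Hsp70 at its core, measured 571 and 965 CPM at 4 h against 1482 and 1325 CPM at 0 h in grr1-deficient cells, and 552 and 539 CPM at 4 h against 1018 and 1117 CPM at 0 h in WT cells. Every 4 h library was below every 0 h library, although replicate 2 of grr1-deficient cells at 4 h exceeded replicate 1 by 0.76 on the log2 scale. SSC1 changed by −0.87 ± 0.25 in grr1-deficient cells and −0.97 ± 0.25 in WT cells. MGE1, the nucleotide exchange factor of Ssc1, fell by 1.47 and 1.36, and TIM44, which tethers Ssc1 to the channel, by 1.10 and 1.37, in grr1-deficient and WT cells. PAM18, the J-protein that stimulates Ssc1, measured 48.8 and 56.8 CPM at 4 h against 214 and 209 CPM at 0 h in grr1-deficient cells, and 30.3 and 31.1 CPM at 4 h against 155 and 137 CPM at 0 h in WT cells. It had the steepest decrease of the motor, −1.999 ± 0.13 in grr1-deficient and −2.25 ± 0.13 in WT cells, and it was higher in grr1-deficient than in WT cells at 4 h (log2 0.78 ± 0.13, adjusted p = 0.00325) and at 0 h (log2 0.53 ± 0.12, adjusted p = 0.00766).

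PAM16, the J-like partner of Pam18, changed by −1.85 in grr1-deficient cells and −1.29 in WT cells. PAM17, a subunit that helps assemble the motor, measured 51.8 and 40.3 CPM at 4 h against 92.7 and 92.1 CPM at 0 h in grr1-deficient cells, and 29.2 and 28.2 CPM at 4 h against 39.9 and 36.6 CPM at 0 h in WT cells. All 4 grr1-deficient libraries exceeded the WT libraries of the same time, by 0.68 ± 0.15 at 4 h (adjusted p = 0.0104) and 1.27 ± 0.15 at 0 h (adjusted p = 0.000349). Its decrease was 1.01 in grr1-deficient cells and 0.41 in WT cells, and the change in WT cells turned to 0.33 with total counts. The difference of these decreases, −0.59 ± 0.20, missed the threshold (adjusted p = 0.0509).

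The SAM complex inserts barrel proteins into the outer membrane. SAM50, its channel subunit, measured 104 and 113 CPM at 4 h against 88.4 and 99.7 CPM at 0 h in grr1-deficient cells, and 160.2 and 168 CPM at 4 h against 76.4 and 84.1 CPM at 0 h in WT cells. It was the only member besides HSP78 to rise in WT cells (log2 1.03 ± 0.12, adjusted p = 0.0001), and in grr1-deficient cells its change was 0.21 ± 0.12 (adjusted p = 0.190). The difference passed (log2 −0.82 ± 0.17, adjusted p = 0.00695), and at 4 h SAM50 was lower in grr1-deficient than in WT cells (log2 −0.60 ± 0.12, adjusted p = 0.00837). SAM37, a cytosolic subunit, measured 30.7 and 33.6 CPM at 4 h against 60.55 and 66.3 CPM at 0 h in grr1-deficient cells, and 40.0 and 48.0 CPM at 4 h against 47.7 and 39.8 CPM at 0 h in WT cells. It fell in grr1-deficient cells (log2 −0.98 ± 0.15, adjusted p = 0.00114), in WT cells the 2 times overlapped (0.01 ± 0.15), and the difference was −0.99 ± 0.21 (adjusted p = 0.00779). SAM35, the subunit that recognises barrel precursors, fell by 0.57 in grr1-deficient cells and by 0.61 in WT cells, and stood at 0.14 in WT cells with total counts.

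MAS1 and MAS2 are the subunits of the matrix peptidase that cuts presequences. MAS1 measured 95.9 and 101 CPM at 4 h against 272 and 268.5 CPM at 0 h in grr1-deficient cells, and 93.5 and 99.8 CPM at 4 h against 124 and 114 CPM at 0 h in WT cells. The grr1-deficient libraries at 0 h stood above the other 6. MAS1 fell by 1.46 in grr1-deficient cells and by 0.30 in WT cells, where total counts turned it to 0.45, and the difference passed (log2 −1.16 ± 0.16, adjusted p = 0.000978). MAS2 measured 42.4 and 72.0 CPM at 4 h against 179 and 172 CPM at 0 h in grr1-deficient cells, and 41.0 and 35.5 CPM at 4 h against 81.3 and 77.4 CPM at 0 h in WT cells. It was also higher in grr1-deficient than in WT cells at 0 h, by 1.15 ± 0.22 (adjusted p = 0.00335), and it fell by 1.61 and 1.05. The difference of these decreases, −0.56, did not pass with all 8 libraries (adjusted p = 0.194), and it was −1.02 without both libraries of replicate 2.

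MIA40 is the receptor and oxidoreductase that traps cysteine-rich proteins in the intermembrane space, and ERV1 is the oxidase that recharges it. MIA40 measured 184 and 334 CPM at 4 h against 546 and 803 CPM at 0 h in grr1-deficient cells, and 111 and 128 CPM at 4 h against 142 and 147 CPM at 0 h in WT cells. It was higher in grr1-deficient than in WT cells at both times, and the difference at 0 h, log2 2.22 ± 0.30, adjusted p = 0.000912, was the largest of any member between the strains, with HSP78 next to it. At 4 h the difference was log2 1.11 ± 0.29, adjusted p = 0.0265, and it was 0.62 (adjusted p = 0.0935) without grr1-deficient 4 h replicate 2. Replicate 2 exceeded replicate 1 by 0.86 at 4 h and 0.56 at 0 h in grr1-deficient cells, against 0.21 and 0.05 in WT cells. MIA40 fell in grr1-deficient cells (log2 −1.38 ± 0.29, adjusted p = 0.00690) and not past the threshold in WT cells (log2 −0.27 ± 0.29, adjusted p = 0.437), and the difference missed it (log2 −1.11 ± 0.41, adjusted p = 0.0683). The values deposited by the authors were −1.38 ± 0.38 in grr1-deficient cells (authors' adjusted p = 0.00193) and −0.285 ± 0.13 in WT cells (authors' adjusted p = 0.0341). Without both libraries of replicate 2 the difference was −1.29.

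ERV1 measured 37.0 and 44.0 CPM at 4 h against 99.6 and 106 CPM at 0 h in grr1-deficient cells, and 38.8 and 42.1 CPM at 4 h against 66.1 and 63.5 CPM at 0 h in WT cells. Its 4 h libraries overlapped between the strains, and at 0 h it was higher in grr1-deficient than in WT cells (log2 0.66 ± 0.13, adjusted p = 0.00304). ERV1 fell by 1.34 in grr1-deficient cells and by 0.68 in WT cells, and stood at 0.06 in WT cells with total counts.

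All 3 matrix folding genes were higher in grr1-deficient than in WT cells at 0 h. HSP78, the disaggregase that acts with Ssc1, measured 772 and 755.5 CPM at 4 h against 549.8 and 723 CPM at 0 h in grr1-deficient cells, and 929 and 1004 CPM at 4 h against 155 and 157 CPM at 0 h in WT cells. WT cells at 0 h stood alone at a low level, and the other 6 libraries lay between 549.8 and 1004 CPM. HSP78 rose by 2.63 ± 0.18 in WT cells (adjusted p = 3.89e-06), changed by 0.26 ± 0.17 in grr1-deficient cells (adjusted p = 0.229), and was higher by 2.03 ± 0.17 in grr1-deficient than in WT cells at 0 h (adjusted p = 0.000122). HSP60, the chaperonin, measured 678 and 875 CPM at 4 h against 1617 and 1696 CPM at 0 h in grr1-deficient cells, and 630.1 and 625 CPM at 4 h against 725 and 639 CPM at 0 h in WT cells. Here grr1-deficient cells at 0 h stood alone at a high level, 1.28 ± 0.19 above WT cells (adjusted p = 0.000905). HSP60 fell in grr1-deficient cells (log2 −1.09 ± 0.19, adjusted p = 0.00183) and changed by −0.12 ± 0.18 in WT cells (adjusted p = 0.588).

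HSP10, the lid of the chaperonin, measured 225 and 299 CPM at 4 h against 579 and 855 CPM at 0 h in grr1-deficient cells, and 281 and 314 CPM at 4 h against 387.5 and 338 CPM at 0 h in WT cells. It followed HSP60, with a decrease of 1.45 in grr1-deficient cells, a change of −0.29 in WT cells that did not pass (adjusted p = 0.270) and a level at 0 h that was higher by 0.98 ± 0.22 in grr1-deficient than in WT cells (adjusted p = 0.00629). At 4 h 0 of the 3 matrix folding genes passed between the strains with all 8 libraries.

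**Figure D4:**
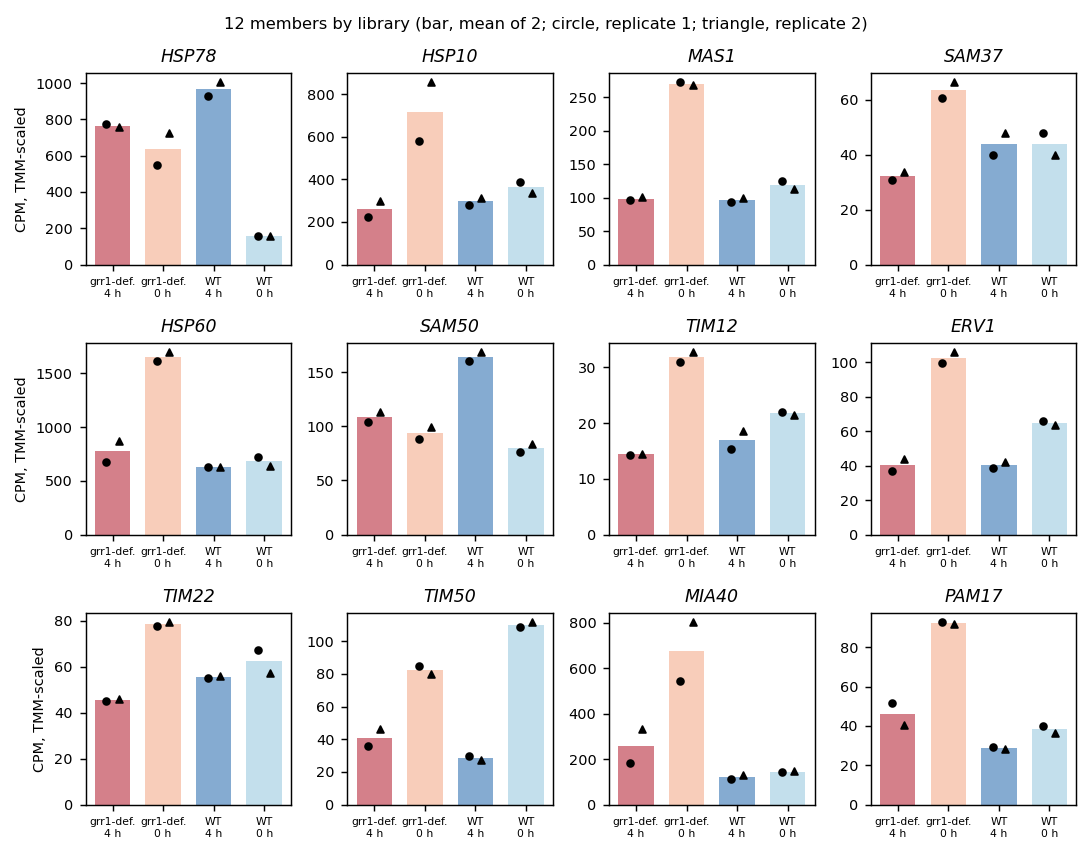
TMM-scaled CPM of 12 members in each library; bars are means of 2 libraries, circles replicate 1 and triangles replicate 2, with an axis from 0 in every panel. The first 10 passed the interaction test, and MIA40 and PAM17 were added after their values were seen; WT cells at 0 h stand low in HSP78 (155 and 157 CPM), and grr1-deficient cells at 0 h stand high in HSP60, HSP10, MAS1 and MIA40.

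The interaction asked whether the response to 4 h of tunicamycin differed between the strains. It passed for 10 members, 9 with a lower and 1 with a higher value in grr1-deficient cells, against 17.4% of all genes called lower and 19.9% called higher. The lower ones were HSP78 (−2.37 ± 0.24, adjusted p = 0.000245), HSP10 (−1.16 ± 0.31, adjusted p = 0.0187), MAS1, SAM37, HSP60 (−0.97 ± 0.26, adjusted p = 0.0199), SAM50, TIM12, ERV1 (−0.66 ± 0.18, adjusted p = 0.0216) and TIM22 (−0.61 ± 0.17, adjusted p = 0.0228), and the higher one was TIM50. The median over the members was −0.49, against 0.03 over all genes. With all 8 libraries no member of the TOM complex or of the import motor passed. Without both libraries of replicate 2 all 10 were still called, TOM6, TIM9, TIM10, TIM17, PAM16, MAS2 and MIA40 also passed lower, and TOM70 passed higher, against 22.8% of all genes called lower and 25.9% called higher. HSP78, MAS1, SAM37, SAM50 and TIM50 kept the call without each library in turn, and the other 5 did not. Without WT 4 h replicate 2, the adjusted p was 0.115 for TIM12, 0.0930 for TIM22, 0.101 for ERV1, 0.0799 for HSP60 and 0.0788 for HSP10. On leaving out WT 0 h replicate 1, the adjusted p rose to 0.0671 for TIM12, 0.0666 for ERV1 and 0.0657 for HSP60. With the omission of WT 0 h replicate 2, the adjusted p came to 0.0905 for TIM12, 0.125 for TIM22, 0.101 for ERV1, 0.121 for HSP60 and 0.0901 for HSP10. Without WT 4 h replicate 1, the adjusted p stood at 0.0834 for TIM22, 0.0595 for ERV1, 0.0809 for HSP60 and 0.0505 for HSP10. With total counts 26 members were called lower and 0 higher, against 42.5% and 7.70% of all genes, while the median of all genes moved to −0.65. The call of TIM22 was also lost with coding-region counts (adjusted p = 0.0536).

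The comparison of the strains before the drug asked how these genes differed in cells without Grr1. At 0 h 15 members were higher and 3 lower in grr1-deficient cells, against 22.5% of all genes called higher and 27.2% called lower, with a median of 0.39 over the members and −0.06 over all genes. The 15 were the matrix folding genes HSP78, HSP60 and HSP10, the peptidase genes MAS1 and MAS2, both MIA genes, the motor genes PAM16, PAM17 and PAM18, the small TIM genes TIM9, TIM10 and TIM12, TIM22 and SAM37. The 3 lower were TOM71, TIM50 and TIM21. The TOM pore and small subunits had 0 of 4 called, with changes of 0.28 to 0.52. These 0 h libraries also enter the time comparisons and the interaction, so these results are not independent of those above. Without both libraries of replicate 2 all 18 kept their direction, with a median of 0.30 over the members and −0.09 over all genes. The 7 calls that held without each library in turn were HSP78, HSP60, MIA40, ERV1, MAS1, MAS2 and PAM17, and the other 11 did not. Without WT 0 h replicate 1, the adjusted p was 0.0905 for TOM71, 0.0773 for TIM10, 0.0772 for TIM12, 0.0640 for TIM22, 0.114 for TIM50, 0.137 for TIM21 and 0.0916 for PAM16. On leaving out grr1-deficient 0 h replicate 2, the adjusted p rose to 0.120 for TIM9, 0.0777 for TIM10, 0.0525 for TIM12, 0.114 for TIM22, 0.109 for TIM50, 0.0522 for TIM21, 0.0969 for PAM16 and 0.0677 for SAM37. With the omission of WT 0 h replicate 2, the adjusted p came to 0.161 for TIM9, 0.112 for TIM10, 0.104 for TIM12, 0.359 for TIM22, 0.124 for TIM50, 0.100 for PAM16, 0.0897 for PAM18, 0.150 for SAM37 and 0.0640 for HSP10. Without grr1-deficient 4 h replicate 2, the adjusted p stood at 0.0604 for TIM22, and without grr1-deficient 0 h replicate 1 it was 0.106 for TIM22 and 0.0516 for TIM50. On leaving out WT 4 h replicate 1, the adjusted p was 0.100 for TIM22 and 0.0676 for TIM50, and without WT 4 h replicate 2 it was 0.0998 for TIM22 and 0.0672 for TIM50. With total counts 27 members were called higher and 0 lower, against 36% and 11.0% of all genes, and the median of all genes was 0.34; the calls of TOM71, TIM50 and TIM21 were lost. The call of TIM22 at 0 h was also lost with the replicate block (adjusted p = 0.0666), DESeq2 (0.127), no low-count filter (0.0657) and coding-region counts (0.0663). That of TIM50 was lost with DESeq2 (adjusted p = 0.0635), coding-region counts (0.0932), a fit of these groups alone (0.0842) and without the mitochondrial genome (0.0913). That of TIM21 was lost without the mitochondrial genome (adjusted p = 0.0518) and in a fit of these groups alone (0.0972).

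After 4 h of tunicamycin 5 members, MIA40, PAM18, PAM17, TIM44 and TIM50, were higher and SAM50 was lower in grr1-deficient than in WT cells, against 17.2% of all genes called higher and 14.1% called lower. The median was 0.00 over the members and over all genes. TIM44 was at 64.02 and 90.45 CPM in grr1-deficient cells and 53.8 and 50.8 CPM in WT cells (log2 0.56 ± 0.17, adjusted p = 0.0353). Without both libraries of replicate 2 all 6 kept their direction, with TIM50 at 0.32 ± 0.14, while HSP78 stood at −0.33 ± 0.13 and HSP10 at −0.41 ± 0.13. Of all genes 24.5% were then called higher and 22.2% lower. PAM18 was the 1 call that held without each library in turn. Without grr1-deficient 4 h replicate 2, the adjusted p was 0.136 for TIM50, 0.182 for TIM44 and 0.0935 for MIA40. On leaving out WT 4 h replicate 1, the adjusted p rose to 0.115 for TIM50, 0.140 for TIM44, 0.0726 for PAM17, 0.0549 for SAM50 and 0.147 for MIA40. With the omission of WT 4 h replicate 2, the adjusted p came to 0.181 for TIM50, 0.195 for TIM44, 0.0956 for PAM17, 0.0788 for SAM50 and 0.111 for MIA40. Without WT 0 h replicate 1, the adjusted p stood at 0.0596 for TIM50 and 0.0707 for TIM44, and without WT 0 h replicate 2 it was 0.0594 for TIM50 and 0.0704 for TIM44. With total counts 1 member was called higher and 8 lower, against 9.60% and 27.7% of all genes, and the median of all genes was −0.28; the calls of TIM50, TIM44, PAM17 and MIA40 were lost. A fit of these groups alone ended the calls of TIM50 (adjusted p = 0.0657) and TIM44 (0.0736), and coding-region counts that of TIM50 (0.0721).

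**Figure D5:**
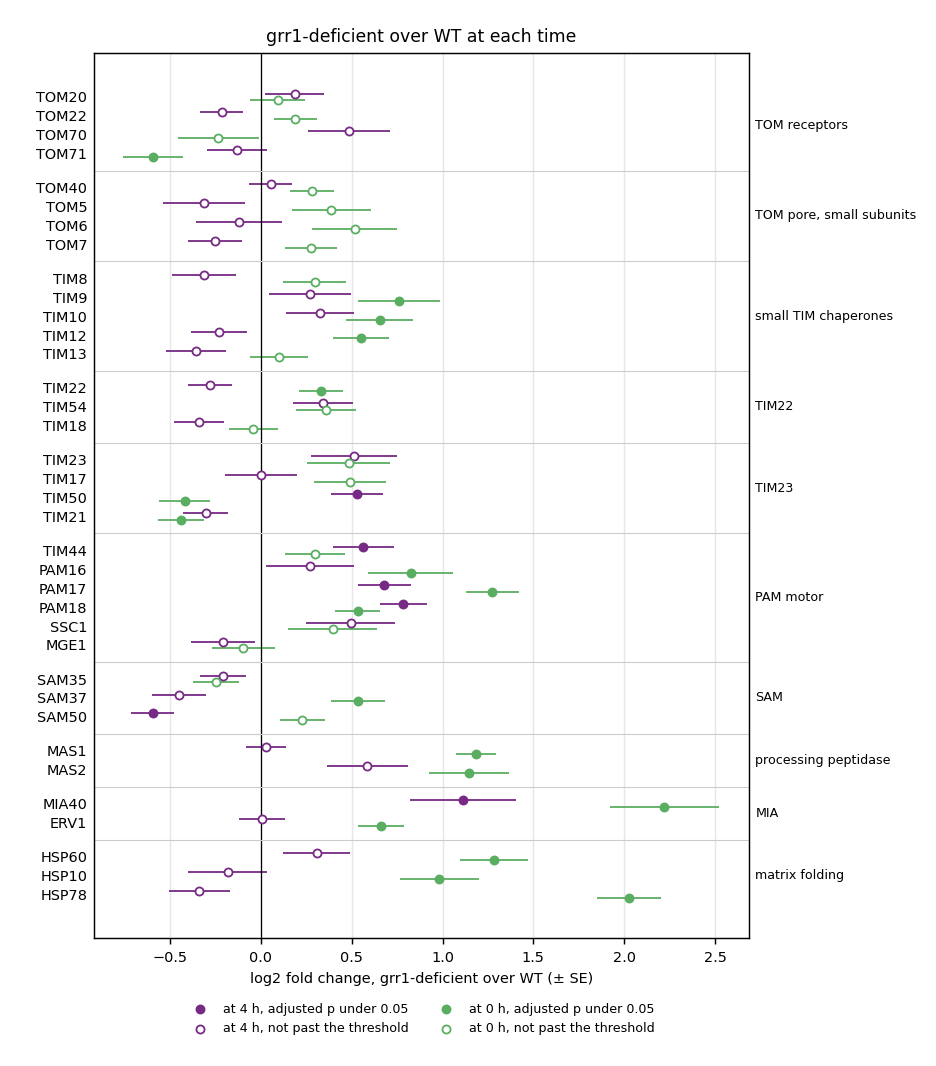
log2 fold change of grr1-deficient over WT cells (± SE) for each member at 4 h (purple) and at 0 h (green); filled points passed the threshold of 0.05 on edgeR's adjusted p. The 0 h points of MIA40 (2.22), HSP78 (2.03), HSP60 (1.28), PAM17 (1.27), MAS1 (1.18) and MAS2 (1.15) lie farthest to the right, and 5 members lie right of 0 and filled at 4 h.

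Ratios of partner genes per kilobase of countable length, formed within each library so that library scaling cancels, showed where the machinery shifted within itself. The ratio of HSP78 to HSP60 was 0.778 and 0.589 at 4 h against 0.232 and 0.291 at 0 h in grr1-deficient cells, and 1.01 and 1.10 at 4 h against 0.146 and 0.168 at 0 h in WT cells. It was higher at 4 h in every library of both strains. The ratio of SAM50 to TOM40, the channels of outer membrane assembly and of entry, was 0.665 and 0.649 at 4 h against 0.206 and 0.238 at 0 h in grr1-deficient cells, and 0.978 and 1.09 at 4 h against 0.213 and 0.248 at 0 h in WT cells. The ratios at 0 h overlapped between the strains, and every ratio at 4 h exceeded every ratio at 0 h. TOM70 over TOM71 was 1.73 and 1.81 at 4 h against 3.05 and 4.18 at 0 h in grr1-deficient cells, and 1.02 and 1.31 at 4 h against 2.95 and 2.69 at 0 h in WT cells. MIA40 over ERV1 was 4.19 and 6.37 at 4 h and 4.61 and 6.39 at 0 h in grr1-deficient cells, against 2.42 and 2.57 at 4 h and 1.81 and 1.95 at 0 h in WT cells. That ratio separated the strains at both times and, in grr1-deficient cells, overlapped between the times. For the chaperonin pair, HSP60 over HSP10 lay between 0.542 and 0.874 in all 8 libraries.

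At 4 h the 2 replicates of the grr1-deficient strain were farther apart than those of WT cells, for these genes and for all genes of 10 CPM or more. In grr1-deficient cells the median absolute log2 difference was 0.37 at 4 h and 0.16 at 0 h over the members. Over the 5231 genes it was 0.21 and 0.23. In WT cells it was 0.11 and 0.13 over the members, and 0.09 and 0.11 over the 5231 genes. The median of replicate 2 over replicate 1 was 0.24 at 4 h and 0.14 at 0 h over the members in grr1-deficient cells, and 0.03 at 4 h and −0.11 at 0 h in WT cells. In grr1-deficient cells 29 of 36 members were higher in replicate 2 at 4 h and 27 at 0 h, where the median of the 5231 genes was −0.01 at 4 h and −0.02 at 0 h. The share of all genes was not counted for these numbers or for differences over 1.5-fold. At 4 h 7 members differed by over 1.5-fold, among them MIA40 (0.86), PAM16 (0.77), TIM23 (0.77), MAS2 (0.76) and SSC1 (0.76), and at 0 h 0 members did. These replicates are also the ones that differ in transcripts of the mitochondrial genome, and the part of that difference in the members' levels was not tested.

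The other genes of the pathway, 54 names in 6 lists of which 51 were tested, were counted in the same way, and those with the largest or smallest called change of a list in a comparison are named. At 4 h over 0 h, 4 rose (7.84%) and 25 fell (49.0%) in grr1-deficient cells, against 21.5% of all genes called higher and 24.5% called lower, with a median of −0.51. In WT cells 14 rose (27.5%) and 7 fell (13.7%), against 32.5% of all genes called higher and 33.1% called lower, with a median of −0.01. The interaction passed for 28, of which 26 were lower (51.0%) and 2 higher (3.92%) in grr1-deficient cells, against 17.4% of all genes called lower and 19.9% called higher, with a median of −0.76. At 0 h 29 were higher (56.9%) and 2 lower (3.92%) in grr1-deficient than in WT cells, against 22.5% and 27.2% of all genes, with a median of 0.80. At 4 h 8 were higher (15.7%) and 3 lower (5.88%), against 17.2% and 14.1% of all genes, with a median of −0.02.

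In the fit without both libraries of replicate 2, 28 of the 29 calls with time in grr1-deficient cells held, as did all 28 of the interaction, all 31 at 0 h and 10 of the 11 at 4 h. The median of these genes in that fit was −0.60 with time in grr1-deficient cells, against 0.02 over all genes. Between the strains at 4 h it was −0.15, against −0.01 over all genes. With total counts 34 rose and 0 fell in WT cells, against 57.0% of all genes called higher and 16.3% called lower. The median was then 0.74, close to the 0.78 of all genes. That scaling gave 0 higher and 39 lower for the interaction, against 7.70% and 42.5% of all genes. For the strains at 0 h it gave 37 higher and 0 lower, against 36% and 11.0% of all genes. At 4 h it gave 2 higher and 10 lower, against 9.60% and 27.7% of all genes.

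The twin cysteine proteins of the intermembrane space, which are imported by Mia40, had 8 of 11 higher and 0 lower in grr1-deficient cells at 0 h. Of all genes 22.5% were called higher and 27.2% lower. In this list COX12 (516 and 123 CPM) and QCR6 (447 and 101 CPM) differed widely between the replicates of grr1-deficient cells at 0 h. MDM35, a carrier of lipid transfer proteins, measured 59.5 and 90.1 CPM at 4 h against 196 and 268 CPM at 0 h in grr1-deficient cells, and 29.9 and 35.9 CPM at 4 h against 34.35 and 32.7 CPM at 0 h in WT cells (log2 2.79 ± 0.24, adjusted p = 0.00013 for the strains at 0 h). COX17, a copper chaperone, measured 25.5 and 46.4 CPM at 4 h against 125 and 156 CPM at 0 h in grr1-deficient cells, and 18.3 and 20.1 CPM at 4 h against 31.0 and 25.9 CPM at 0 h in WT cells (log2 2.304 ± 0.27, adjusted p = 0.000451 for the strains at 0 h). Both genes fell in grr1-deficient cells (−1.63 and −1.96), and neither change passed in WT cells (−0.03 and −0.57). In WT cells COX17 stood at −0.60 in the fit without both grr1-deficient libraries of replicate 2, and MDM35 rose with total counts (0.72). Between the strains at 4 h both were higher in grr1-deficient cells, MDM35 by 1.19 and COX17 by 0.91. MIX14 had the lowest interaction of this list, −1.65, with a change of −0.81 in grr1-deficient cells and 0.84 in WT cells. MIX23 rose by 0.77 in WT cells and was higher by 0.97 in grr1-deficient cells at 0 h.

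Among the J-proteins and Hsp70 partners, MDJ1, the J-protein that brings Ssc1 to folding and to disaggregation with Hsp78, measured 73.0 and 108 CPM at 4 h against 164 and 181 CPM at 0 h in grr1-deficient cells, and 105 and 114 CPM at 4 h against 73.8 and 78.3 CPM at 0 h in WT cells. It fell in grr1-deficient cells (log2 −0.93 ± 0.18, adjusted p = 0.00344) and rose in WT cells (log2 0.52 ± 0.18, adjusted p = 0.0296), and the difference passed (log2 −1.45 ± 0.25, adjusted p = 0.00311). TCM62, a chaperonin-like protein, fell by 1.44 in grr1-deficient cells and was higher there at 0 h by 1.55. MCX1, a relative of the bacterial unfoldase ClpX, was lower in grr1-deficient cells at 0 h (−0.69) and fell in WT cells (−0.68), where total counts put it at 0.06. ECM10, the paralog of SSC1, rose by 0.45 in grr1-deficient cells, a call that was lost without both libraries of replicate 2 (0.30 ± 0.17, adjusted p = 0.134).

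Of the other import factors, MSP1, an ATPase that extracts misplaced proteins from the outer membrane, measured 169 and 158 CPM at 4 h against 115 and 97.5 CPM at 0 h in grr1-deficient cells, and 184 and 182 CPM at 4 h against 42.35 and 39.4 CPM at 0 h in WT cells. It rose by 0.62 ± 0.12 in grr1-deficient cells and by 2.16 ± 0.13 in WT cells. CIS1, which acts with Msp1 when import is overloaded, rose by 0.73 ± 0.19 in grr1-deficient cells and by 2.23 ± 0.19 in WT cells, and at 4 h it was lower in grr1-deficient than in WT cells (−0.76). XDJ1, a J-protein, was higher in grr1-deficient than in WT cells by 0.63 at 4 h and 1.57 at 0 h. MGR2, a subunit of the TIM23 translocase, fell by 1.57 in grr1-deficient cells and changed by −0.63 in WT cells, where total counts put it at 0.11. TAM41, an enzyme of cardiolipin synthesis, had an interaction of −0.85.

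Among the proteases and prohibitins, MGR1, an adaptor of the inner membrane protease Yme1, rose in both strains, by 2.63 ± 0.25 in grr1-deficient and 1.17 ± 0.23 in WT cells. YME1 itself changed by −0.88 in grr1-deficient cells and −0.98 in WT cells, and both calls were decreases. ATP23, a metalloprotease, fell by 1.64 in grr1-deficient cells, OMA1, a stress-activated protease, was higher by 1.33 in grr1-deficient cells at 0 h, and PCP1, a rhomboid protease, was lower at 4 h (−0.55). Of the presequence peptidases, OCT1, which trims an octapeptide, was higher in grr1-deficient than in WT cells by 1.14 at 4 h and 1.30 at 0 h. ICP55, an aminopeptidase, changed by −1.07 in grr1-deficient and −0.93 in WT cells, CYM1, which degrades freed presequences, was higher by 0.80 at 4 h, and IMP1, an inner membrane peptidase, had the only called interaction of its list, −0.76.

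In the list of inner membrane insertion, COX20, a chaperone of Cox2, rose by 1.51 in WT cells and had a change of 0.01 in grr1-deficient cells that did not pass (adjusted p = 0.961). MBA1, a ribosome receptor, fell by 1.68 in grr1-deficient cells and was higher there at 0 h by 1.54. The insertase gene OXA1 fell in WT cells (−0.93), COX18 fell in grr1-deficient cells (−0.48), and YLH47, which binds mitochondrial ribosomes, was lower in grr1-deficient than in WT cells at 4 h (−0.66).

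Genes with and without the Puf3 element were set side by side as a description. Among genes outside the module, the 864 with the element had a median change at 4 h over 0 h of −0.48 in grr1-deficient cells and −0.13 in WT cells, against 0.09 and 0.06 for the 4745 without it; with total counts the medians in WT cells were 0.62 and 0.81. At 0 h the 864 had a median of 0.32 in grr1-deficient over WT cells, against −0.13 for the 4745, and at 4 h the medians were 0.00 and −0.01. Of the 864, 371 were called higher and 157 lower at 0 h, against 900 and 1428 of the 4745. Within the module the 26 members with the element had a median of 0.49 between the strains at 0 h, with 12 called higher and 0 lower, and the 10 without it had 0.21, with 3 called higher and 3 lower. With time, the 26 had medians of −1.42 in grr1-deficient cells and −1.08 in WT cells, and the 10 had −0.92 and −0.79. Between the strains at 0 h, the medians without both libraries of replicate 2 were 0.34 for the 26 and 0.12 for the 10, and outside the module 0.24 for 868 genes with the element and −0.15 for 4741 without it. MAS1, which lacks the letters, differed between the strains at 0 h by 1.18 ± 0.11. For the heat shock element, the 3 members holding it had a median of 1.28 between the strains at 0 h. The 66 other genes holding it had −0.20, with 15 called higher and 26 lower. With time in WT cells the medians were −0.12 for the 3 and −0.03 for the 66.

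The gene for Puf3 itself measured 97.0 and 145 CPM at 4 h against 172 and 113 CPM at 0 h in grr1-deficient cells, and 53.2 and 45.0 CPM at 4 h against 53.7 and 70.5 CPM at 0 h in WT cells. All 4 grr1-deficient libraries exceeded all 4 WT libraries, by 1.30 ± 0.27 at 4 h (adjusted p = 0.0108) and 1.20 ± 0.27 at 0 h (adjusted p = 0.00776), and PUF3 passed in neither time comparison. Without both grr1-deficient libraries of replicate 2 its change with time was −0.85 in grr1-deficient cells and −0.37 in WT cells. The strains then differed by 0.98 at 4 h and 1.46 at 0 h. HSF1, the gene for the heat shock factor, measured 126 and 114 CPM at 4 h against 53.1 and 50.8 CPM at 0 h in grr1-deficient cells, and 118 and 121.5 CPM at 4 h against 41.7 and 54.9 CPM at 0 h in WT cells. It rose by 1.21 ± 0.15 in grr1-deficient cells and by 1.31 ± 0.15 in WT cells, with a difference of −0.10 ± 0.21 (adjusted p = 0.734). In grr1-deficient cells its change was 1.22 without both libraries of replicate 2, and with total counts the difference passed (−0.78 ± 0.25, adjusted p = 0.0276). The part of either factor in the members' levels was not tested.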

How the data were processed

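RNA of 8 libraries of W303 yeast was analysed, 2 biological replicates in each of 4 groups, with group and replicate number taken from the labels. Raw counts of reads for each gene were deposited. Per the file headers they come from plastid, which placed reads of 25 to 100 nt at the position 25 nt from the 5′ end. The same files hold RPKM values, scaled by the authors' program, and the countable length. Separate tables deposited by the authors hold their log2 fold changes with p-values and were used here only to match gene symbols. Build R64 and the tools STAR 2.7.3a, Bowtie2 2.3.5, cutadapt 2.6 and DESeq2 are listed, with no roles, in the submitters' processing notes. The sources used here state neither the strand setting nor how reads with several matches were treated.

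The exon counts of all 8 libraries entered 1 robust quasi-likelihood fit of edgeR 4.0.16 (R 4.3.3) with TMM scaling. The default filter on low expression left 5855 genes. Tests of the 5 comparisons were two-sided, p-values were adjusted over all these genes by the Benjamini-Hochberg method, and 0.05 was the limit for a call. All 36 members are named, by role, and of the 54 other pathway genes those with the largest and the smallest called change of a list in a comparison. Members and lists were chosen with earlier results of these data known, and the sequence elements after the members' values were seen, so neither gets a test of its own. The fit was tested on simulated counts. Alternatives were total counts, no filter, coding-region counts, omission of the mitochondrial genome, omission of each library or of both grr1-deficient libraries of replicate 2, a replicate block, fits of the compared groups alone, and DESeq2 1.42.0. Where an omission leaves a group with 1 library, that library is assumed to vary like the other groups. In every group the replicates differed beyond sampling noise (chi-square per degree of freedom of 6.17 to 469.9, mitochondrial genome included), and each library was kept. A count of 0 would allow 3 reads, or 0.242 to 0.614 CPM, for counting error alone, and reads carry no molecular identifiers. Replicate numbers were not used as pairs.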

Additional observations from a re-analysis of the deposited data

Results flagged for a closer look

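For 10 of 36 members (27.8%) the change from 4 h of tunicamycin differed between the strains by the interaction test of edgeR, against 37.3% of all genes. It is given as the response of grr1-deficient cells minus that of WT cells on the log2 scale. The difference was −2.37 for HSP78, which rose in WT cells, at 929 and 1004 CPM at 4 h against 155 and 157 CPM at 0 h. It was −1.16 for HSP10 and −0.97 for HSP60, and −1.16 for MAS1, 3 genes that stood high in grr1-deficient cells at 0 h. SAM37 had −0.99 and SAM50 −0.82, both of the outer membrane assembly complex. The difference was −0.78 for TIM12, −0.66 for ERV1 and −0.61 for TIM22. TIM50 went the other way, at 0.95, with a smaller decrease in grr1-deficient cells. The direction of all 10 was the same without both grr1-deficient libraries of replicate 2. Of the 10 calls, 5 were lost on omission of a single library, those of TIM12, TIM22, ERV1, HSP60 and HSP10. With total counts the difference for TIM50 was 0.26 and did not pass (edgeR adjusted p = 0.355).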

How the results depend on the processing

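Scaling by total counts instead of TMM gave 7 members higher and 13 lower for WT cells at 4 h over 0 h, 0 higher and 26 lower for the interaction, 27 higher and 0 lower for the strains at 0 h, and 1 higher and 8 lower at 4 h. Total counts also turned the values of TIM22 to 0.58, TIM18 to 0.24, TIM21 to 0.55, PAM17 to 0.33, SAM35 to 0.14, MAS1 to 0.45, ERV1 to 0.065 and HSP60 to 0.63 in WT cells, and that of SAM35 to −0.66 in the interaction. Fits of the compared groups alone called 1642 genes for grr1-deficient cells at 4 h over 0 h. Between the strains they called 1 member lower at 0 h, among 2460 genes called, and 3 higher at 4 h, among 1663. Without the mitochondrial genome 1 member was lower at 0 h and 2 at 4 h, against 22.6% and 15.4% of all genes called lower. At 4 h 2 were also lower with coding-region counts and with no filter, among 1789 and 1790 genes called in either direction. Without both grr1-deficient libraries of replicate 2, 1 member rose with time in grr1-deficient cells, 2 were higher and 16 lower in the interaction, 5 were lower at 0 h and 7 at 4 h. Omitting each library in turn gave 0 to 1 members higher with time in grr1-deficient cells, 1272 to 2470 genes called, 1 to 3 members higher and 4 to 13 lower in the interaction, 7 to 19 higher and 0 to 3 lower at 0 h, and 553 to 2263 genes called, 1 to 12 members higher and 0 to 3 lower at 4 h. The number of all genes called moved with the omitted library as well, so these member counts are not results about the members. The cause of these shifts was not tested. The replicate block, which sets 1 common replicate effect for both strains, changed 4 of 180 member calls. It left 26 members lower in WT cells, 33 lower in grr1-deficient cells and 11 lower in the interaction, among 3880, 2743 and 2213 genes called in either direction. Same-numbered libraries deviated together in grr1-deficient cells (r = 0.819 over 5231 genes) but not in WT cells (−0.0818). The numbers were not taken as pairs, so the tests leave out this shared deviation, and a block for grr1-deficient cells alone was not tried. DESeq2 kept 176 of 180 member calls. The effect of depth on the calls was not tested. With 2 libraries a group and 4885844 reads in the shallowest library, a change that missed the threshold is not shown to be absent.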
